A study of Xenopus tropicalis with 12 samples.

Results

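The HMG-box genes of Xenopus tropicalis, which comprise the sox family, the hmgb genes and further genes that carry the same DNA-binding domain, were followed across 5 dissected regions of the early gastrula and in whole embryos. Members were taken from the study's catalog of transcription factors (TFs) as the genes with an HMG box in their listed domains or a name beginning with sox or hmgb. The genes sox17a, sox17b.1, sox17b.2, lef1, tcf7, tcf7l1 and tcf7l2 were left out by name. The catalog's list with expression values holds 1240 entries, slightly more than the TFs the paper counts, and 45 of them are such members. Of these members, 42 have a gene model of the v9 genome assembly, out of 26550 models in all. They were grouped as SoxB1 (sox2 and sox3), 15 other sox models, 3 hmgb genes and 22 other HMG-box genes. The catalog entries for sox12, sox15 and a second hmgxb3 carry no v9 model and were not analysed here.

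Untreated embryos at Nieuwkoop and Faber stage 10 to 10.25, as the sample labels and the methods give it, were cut into animal cap, dorsal, lateral and ventral marginal zone and vegetal mass. Whole sibling embryos were taken alongside. The design text of the series names stage 10.5 instead. Each of the 12 libraries was made from polyA+ RNA of pooled explants of 1 region, or of whole embryos, and 1 clutch, so that every group holds 2 libraries, replicate 1 from one clutch and replicate 2 from the other. No strain, sex or genetic change is given for the embryos.

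Levels are given as TPM, a measure of relative transcript abundance that is corrected for the length of the transcript and for the depth of the library. Tests used the expected counts behind them, and the log2 fold changes given are differences of fitted log2 levels. The libraries held 14634582 to 29166548 expected counts, with medians of 27977760 in replicate 1 and 16574839 in replicate 2. Region markers summed highest in the regions they mark, while some single markers were shared between regions. The summed TPM of 4 animal cap markers was 1224 and 1530 in the animal cap, 150.4 to 854 in the marginal zones and 80.6 and 48.8 in the vegetal mass. That of 6 vegetal markers was 81.7 and 23.8 in the animal cap, 885 to 2222 in the marginal zones and 6952 and 7667 in the vegetal mass. That of 3 dorsal markers (gsc, otx2 and foxd4l1.1) was 936 and 1190 in the dorsal and 96.5 and 41.0 in the ventral marginal zone. It was 603 and 620 in the vegetal mass, where otx2 alone had 432 and 350, beside 410 and 453 dorsally. That of 4 ventral markers was 2201 and 2455 in the ventral, as against 510 and 366 in the dorsal marginal zone. No marker was at 0 in any library, so each region held some RNA of the genes that mark its neighbours.

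The HMG box is a short fold that binds the minor groove of DNA and bends it. Sox proteins bind a specific sequence, usually beside a partner factor, while Hmgb proteins bind DNA with little sequence preference and act as abundant components of chromatin. SoxB1 factors are known in vertebrate embryos for holding cells in a pluripotent or neural-competent state together with class V POU factors. SoxF factors, which include sox7, are known in Xenopus for activating endodermal and nodal genes, and sox3 for restraining nodal genes there. Differences in a region's level can come from fewer cells of a type or from less RNA per cell, and these cannot be told apart in bulk RNA.

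Expression levels ranged widely among the HMG-box genes. The median whole-embryo level of the 42 members was 16.8 TPM, against 4.51 TPM for the 1197 TFs with a model and 1.30 TPM for all gene models. The 3 hmgb genes had a median of 3507 TPM, the 2 SoxB1 genes 575 TPM, the 22 other HMG-box genes 30.6 TPM and the 15 other sox models 1.42 TPM. In whole embryos, 12 of the 42 members exceeded 100 TPM. Another 10 stayed below a mean of 1 TPM in all 6 groups, namely sox5, sox6, sox10, sox14, sox18, both sox30 models, tox, tox2 and ubtf.2. Among these, tox, sox18 and both sox30 models had at most 3 counts in each of the 12 libraries. A gene entered the tests when its counts passed a filter on low values, which 35 of the 42 members did. The 7 that did not (sox10, sox14, sox18, both sox30 models, tox and tox2) had at most 10 counts in any library.

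Transcripts of sox3 (Xetrov90020478) were abundant throughout the animal and marginal regions. Its level was 938 and 1284 TPM in animal cap libraries, 760 and 1152 TPM in the dorsal, 812 and 1351 TPM in the lateral and 773 and 1229 TPM in the ventral marginal zone. In the vegetal mass it was 247 and 175 TPM, and whole embryos had 790 and 1089 TPM. The 8 animal and marginal libraries all lay above both vegetal libraries, and the ranges of the 4 animal and marginal regions overlapped one another.

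Transcripts of sox2 (Xetrov90014375), the other SoxB1 gene, were less abundant and more uneven. Its level was 179 and 204 TPM in animal cap libraries, 256 and 432 TPM in the dorsal, 231 and 324 TPM in the lateral and 150 and 172 TPM in the ventral marginal zone. In the vegetal mass it was 7.63 and 9.19 TPM, and in whole embryos 165 and 255 TPM. Mean levels fell in the order dorsal, lateral, animal cap, ventral and vegetal. The dorsal and lateral ranges overlapped, while the other neighbours in that order did not, with 2 libraries each.

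**Figure D1:**
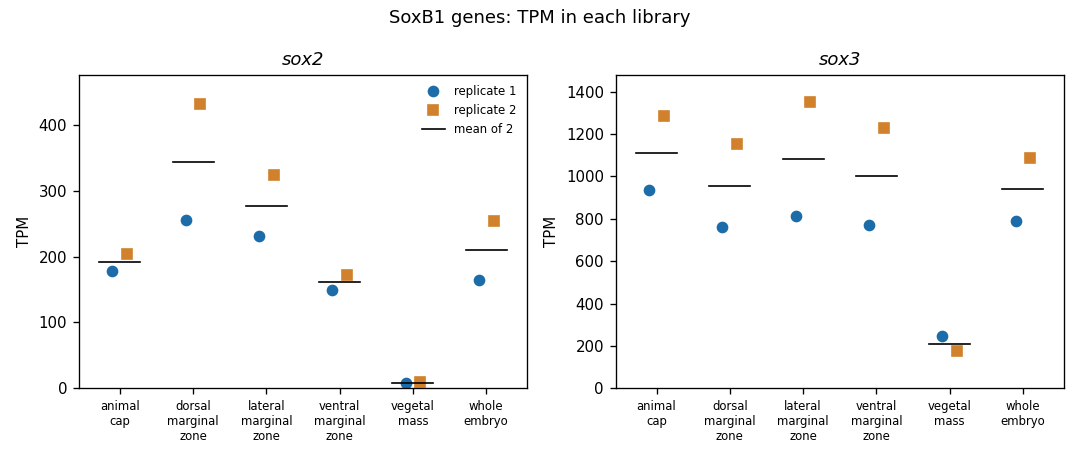
TPM of sox2 and sox3 (vertical axes, from 0) in each library by region (horizontal axis); circles are replicate 1, squares replicate 2 and lines the mean of both. For sox2 the dorsal libraries lie at 256 and 432 TPM and the vegetal mass ones at 7.63 and 9.19 TPM, whereas sox3 keeps 247 and 175 TPM in the vegetal mass.

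Ectoderm and endoderm precursors are enriched in the animal cap and the vegetal mass, the 2 poles of the embryo. Both SoxB1 genes, sox11 and pbrm1 were higher in the animal cap than in the vegetal mass, and sox7 was lower. With edgeR's quasi-likelihood test (p-values adjusted after Benjamini and Hochberg over all 15727 genes tested), these 5 of the 35 members tested passed the threshold of 0.05, beside 8.04% of all genes tested. By direction, 4 members were higher, beside 3.64% of all genes, and 1 was lower, beside 4.4%. The log2 fold change was 4.64 for sox2 (standard error, SE, 0.50, adjusted p = 0.00274) and 2.57 for sox3 (SE 0.52, adjusted p = 0.0282). The call of sox3 was lost without any single one of the 4 animal cap and vegetal libraries, at log2 fold changes of 2.18 to 2.86 and adjusted p of 0.0554 to 0.171, while that of sox2 was kept at log2 fold changes of 4.41 to 4.91.

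With the replicate number as a block, which removes what the libraries of 1 clutch share, 17 of the 35 members passed the threshold, 12 higher and 5 lower, beside 40.6% of all genes tested (19.5% higher and 21.2% lower). The median log2 fold change was 0.19 over the members tested and -0.03 over all genes without the block, and 0.16 and -0.02 with it. All 5 members called without the block were among the 17. The blocked adjusted p was 3.52e-07 for sox2 and 0.000828 for sox3. In TPM, the log2 difference of sox3 between these regions was 1.92 in replicate 1 and 2.87 in replicate 2. The fits with a library left out held no block and left that library's region with a single clutch.

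**Figure D2:**
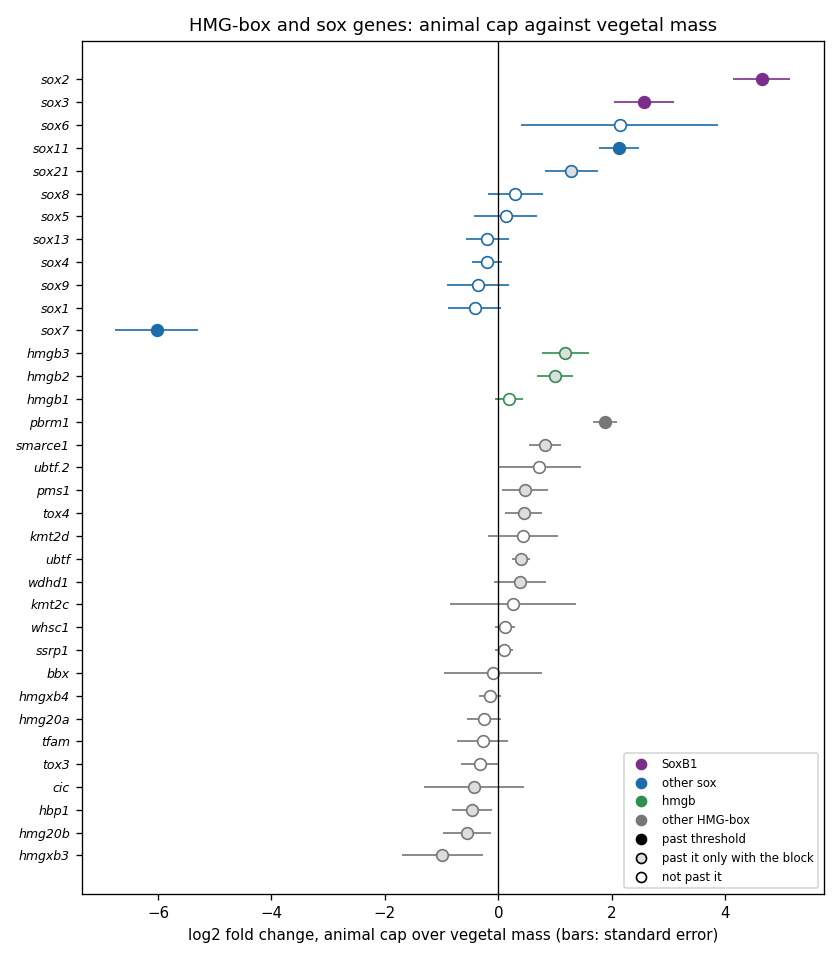
Log2 fold change of the animal cap over the vegetal mass (horizontal axis, with SEs) for the 35 members tested, by group; filled points passed the threshold of 0.05, grey-filled points passed it only with the replicate block, and open points in neither fit. The outermost points are sox2 at 4.64 and sox7 at -6.02.

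Over the marginal zones together, enriched in mesoderm precursors, the ranges of both SoxB1 genes overlapped those of the animal cap. Against the vegetal mass, the mean of the 3 marginal zones gave 4 members past the threshold, beside 6.57% of all genes tested. The log2 fold change was 5.02 for sox2 (SE 0.48, adjusted p = 0.00376) and 2.43 for sox3 (SE 0.47, adjusted p = 0.0293), and pbrm1 was higher and sox7 lower as well. The call of sox3 was lost without dorsal replicate 2, ventral replicate 2, vegetal replicate 1 or vegetal replicate 2, at adjusted p of 0.0568 to 0.226. The blocked fit called 17 members here too, 13 higher and 4 lower, beside 38.2% of all genes tested (18% higher and 20.2% lower), with an adjusted p of 0.000756 for sox3.

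Between the animal cap and the mean of the marginal zones, edgeR called 0 of the 35 members, beside 1.31% of all genes tested. At an unadjusted p under 0.05 there were 3, beside 6% of all genes. DESeq2 and limma called 0 members as well, though the shares of all genes they called were not determined. The log2 fold change of sox3 in this comparison was 0.14 (SE 0.40) and that of sox2 was -0.38 (SE 0.36). The sign of the sox3 value turned without animal cap replicate 2, at -0.26, and without lateral replicate 1, at -0.01. The blocked fit called pbrm1 alone, beside 5.86% of all genes tested.

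Across the marginal zone, from the dorsal side that holds the organizer to the ventral side, sox2 was 256 and 432 TPM in the dorsal and 150 and 172 TPM in the ventral marginal zone. The 2 dorsal libraries lay above the 2 ventral ones. The mean level was 2.14 times the ventral mean on the TPM scale, and the log2 fold change was 1.201 (SE 0.43, adjusted p = 1). EdgeR called 0 of the 35 members in this comparison, beside 0.0445% of all genes tested. At an unadjusted p under 0.05 there were 3 members, beside 2.63% of all genes. DESeq2 and limma called 0 members, but their shares of all genes were not determined, so these counts have no background. With the replicate block, sox2 alone passed, at a log2 fold change of 1.13 and an adjusted p of 0.00727, beside 1.46% of all genes tested.

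For sox3, the dorsal and ventral ranges of 760 and 1152 TPM and of 773 and 1229 TPM overlapped. Its log2 fold change was 0.01 (SE 0.49), with the sign turning under other scalings. The SoxC gene sox11 had a log2 fold change of 1.29 (SE 0.34, adjusted p = 0.71; blocked adjusted p = 0.119), with 211 and 324 TPM in the dorsal and 123 and 114 TPM in the ventral marginal zone.

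The ratio of sox2 to sox3 within a library needs no scaling between libraries. Expressed as a percentage of the sox3 TPM, sox2 stood at 19.1% and 15.9% in the animal cap and at 33.7% and 37.5% in the dorsal marginal zone. It was 28.4% and 24.0% in the lateral and 19.4% and 14.0% in the ventral marginal zone. The vegetal mass had 3.09% and 5.24%, and whole embryos 20.9% and 23.4%. On the log2 scale the mean ratio in the vegetal mass was 2.50 below that of the other regions (difference -2.50, 2 libraries against 8, exact two-sided permutation test, p = 0.0444, the smallest the 45 arrangements allow). Permuting the vegetal label within clutches, added after seeing the data, left 25 arrangements and gave an exact permutation p of 0.08, the smallest these allow. In both clutches the ratio was lower in the vegetal mass than in every other library. In the dorsal marginal zone both ratios lay above those of every other library, and with 2 libraries this was not tested further.

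The order of the clutches for sox3 was turned round in the vegetal mass. There sox3 had 247 TPM in replicate 1 and 175 TPM in replicate 2, while in the other 5 groups replicate 1 was below replicate 2. The summed level of the 4 animal cap markers in the vegetal mass was also higher in replicate 1, at 80.6 TPM, than in replicate 2, at 48.8 TPM. Of these markers, grhl1, grhl3 and tfap2a went this way, while foxi1 had 1.17 TPM in replicate 1 and 1.37 TPM in replicate 2. Vegetal sox2 was also lower in replicate 1, at 7.63 and 9.19 TPM. The part of animal cap cells or RNA in the vegetal sox3 level was not tested. A test of whether the clutch difference in the vegetal mass departs from that in the other 4 regions was added after these values had been seen, so it is no independent support for them. It has 1 vegetal library per clutch, which the model fits exactly, and takes its spread from the other regions alone. In it 7 of the 35 members passed, beside 4.47% of all genes tested.

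Over the 10 region libraries, the TFs whose log2(TPM + 1) followed sox2 most closely, among 757 candidates with a mean of at least 1 TPM that are not HMG-box members, were znf219 (Pearson's r = 0.967), tfdp2 (0.946), tcf12 (0.940), smad4.1 (0.939) and elf2 (0.924). Those nearest to sox3 were zfp91 (0.973), smad4.1 (0.960), msantd4 (0.959), LOC100493966 (0.958) and pou5f3.2 (0.956). The 2 SoxB1 genes correlated with each other at 0.942. These values describe likeness only, since the libraries of a clutch or region are not independent and all share the contrast between the vegetal mass and the rest.

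Genes known to act with SoxB1 factors in pluripotency or in the early neural plate did not share a single regional pattern. Of 8 such TFs, 4 passed the threshold between the animal cap and the vegetal mass, beside 8.04% of all genes tested, with foxd4l1.1 (log2 fold change 2.45) and zic1 (1.92) higher and zic2 (-1.89) and otx2 (-3.14) lower in the animal cap. With the block 7 of the 8 passed, 4 higher and 3 lower, beside 40.6% of all genes. The class V POU gene pou5f3.2 averaged 2294 TPM in the animal cap, as against 1023 TPM in the vegetal mass (log2 fold change 1.31, adjusted p = 0.151; blocked adjusted p = 4.39e-05). In the same comparison pou5f3.1 averaged 112 TPM in the animal cap, as against 199 TPM in the vegetal mass, with a log2 fold change of -0.66 (adjusted p = 0.156; blocked adjusted p = 0.0186). The more abundant pou5f3.3 went the way of pou5f3.2, at 1225 and 884 TPM (log2 fold change 0.61, adjusted p = 0.398; blocked adjusted p = 0.00519). Between dorsal and ventral marginal zones only otx2 of the 8 passed (log2 fold change 5.52), beside 0.0445% of all genes tested. With the block 5 passed, all of them higher dorsally, beside 1.46% of all genes in either direction. Among these, otx2 and foxd4l1.1 also serve here as dorsal markers, so their direction was set by the choice of genes. Reads shared among the pou5f3 copies, or among the foxd4l1 copies, are divided by the counting program, so single copies are less certain than their sum.

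Among the other sox genes, sox7 and sox11 were the only ones with a mean above 100 TPM in any region. Transcripts of sox7 (Xetrov90026112), a SoxF gene, were concentrated at the vegetal pole. Its level was 3.86 and 2.44 TPM in animal cap libraries, 7.41 and 2.95 TPM in the dorsal, 8.53 and 4.94 TPM in the lateral and 12.7 and 13.4 TPM in the ventral marginal zone. The vegetal mass had 107 and 321 TPM, and whole embryos 27.1 and 45.7 TPM. Both vegetal libraries lay far above all others, and they also differed from each other more than the libraries of any other region did in TPM.

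The log2 fold change of sox7 was -6.02 between animal cap and vegetal mass (SE 0.73, adjusted p = 0.00405) and -4.76 between marginal zones and vegetal mass (SE 0.44, adjusted p = 0.00326). The size depended on the vegetal library used, with values of -6.66 without vegetal replicate 1 and -4.85 without vegetal replicate 2 in the animal cap comparison, and of -5.39 and -3.58 in that with the marginal zones. All 4 values passed the threshold. The marginal libraries, in which the 6 vegetal markers summed to 885 to 2222 TPM, held 2.95 to 13.4 TPM of sox7. The part of vegetal cells in those marginal levels was not tested. The difference of sox7 between dorsal and ventral marginal zone was -1.31 on the log2 scale (SE 0.60, adjusted p = 1; blocked adjusted p = 0.64).

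A list of 10 TFs known to act in endoderm with SoxF factors, the 3 sox17 genes among them, had the same direction as sox7. The list was chosen as endoderm TFs, with earlier results of these data known, and includes the 6 vegetal markers above. Its direction was therefore set by the choice of genes and is no support for that of sox7. All 10 were lower in the animal cap than in the vegetal mass in edgeR's test, beside 4.4% of all genes tested, at a median log2 fold change of -6.57, beside -0.03 over all genes. The list's summed level was 292 and 86.2 TPM in the animal cap, 2544 to 4446 TPM in the marginal zones and 10605 and 11653 TPM in the vegetal mass. Within it, vegetal means ran from 17.6 TPM for foxa2 to 4419 TPM for mixer, with sox17a at 1352 TPM. The sox7 mean of 214 TPM lay above those of gata5 (117 TPM), foxa1 (75.7 TPM) and foxa2, and below those of the other listed TFs. In vegetal replicate 1 alone, sox7 (107 TPM) lay just below gata5 (109 TPM).

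Transcripts of sox11 (Xetrov90015107), a SoxC gene known for its role in neural precursors, had a graded distribution. Its level was 333 and 329 TPM in animal cap libraries, 211 and 324 TPM in the dorsal, 179 and 220 TPM in the lateral and 123 and 114 TPM in the ventral marginal zone. The vegetal mass had 101 and 67.7 TPM, and whole embryos 223 and 253 TPM. The animal cap libraries lay above all 8 other region libraries, and the vegetal ones below all others. Against the vegetal mass, the log2 fold change was 2.13 in the animal cap (SE 0.35, adjusted p = 0.0129). In fits without the block, this call was lost without animal cap replicate 2, vegetal replicate 1 or vegetal replicate 2. Such a fit leaves that library's region with a single clutch. With the block and all libraries, sox11 passed between the poles as well. Against the vegetal mass, the marginal zones gave 1.29 (SE 0.30, adjusted p = 0.0511), which passed with the replicate block at an adjusted p of 0.00571. Between the animal cap and the marginal zones it was 0.84 (SE 0.27, adjusted p = 0.402; blocked adjusted p = 0.0663).

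**Figure D3:**
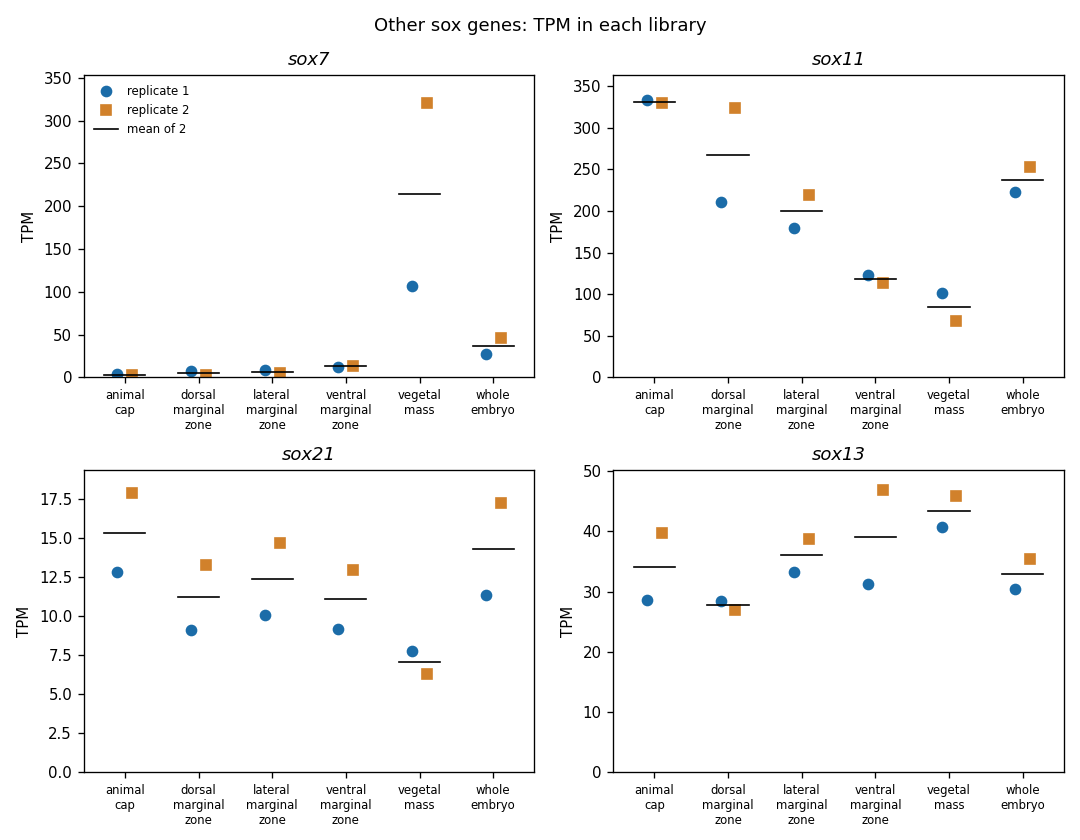
TPM of sox7, sox11, sox21 and sox13 (vertical axes, from 0, each on its own scale) in each library by region (horizontal axes); circles are replicate 1, squares replicate 2 and lines the mean of both. The vegetal sox7 libraries stand at 107 and 321 TPM, and sox11 has its highest mean in the animal cap (333 and 329 TPM) and its lowest in the vegetal mass (101 and 67.7 TPM).

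The remaining sox genes had means below 100 TPM in every region. The gene that the study's catalog calls sox21 (a SoxB2 gene, named sox21-like.2 in the v9 models) had 12.8 and 17.9 TPM in the animal cap, as against 7.79 and 6.32 TPM in the vegetal mass, with 9.14 to 14.7 TPM in the marginal zones. Its log2 fold change between the poles was 1.29 (SE 0.47, adjusted p = 0.161) and passed only with the block (blocked adjusted p = 0.00222). The SoxD gene sox13 had 28.7 and 39.6 TPM in the animal cap, as against 40.8 and 45.9 TPM in the vegetal mass, a log2 fold change of -0.19 (SE 0.38, adjusted p = 0.873). The SoxC gene sox4 stayed between 7.40 and 14.8 TPM in all 12 libraries, and the SoxE gene sox8 between 4.62 and 13.7 TPM.

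The catalog's sox1 (sox21-like.1 in the v9 models, so that its identity as a SoxB1 gene is uncertain) stayed between 1.69 and 4.67 TPM, and the SoxE gene sox9 between 1.18 and 4.57 TPM. Both had their highest value in vegetal replicate 1. Together, the sox2 and sox3 TPM made up 73.6% and 78.3% of the sox TPM considered here in the animal cap and 78.6% to 86.7% in the marginal zones. In the vegetal mass they made up 46.9% and 28.6%, where sox7 took 19.7% and 49.8% and sox11 18.6% and 10.5%. These shares leave out the sox17 genes.

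The hmgb genes were very abundant, and each had its lowest region mean in the vegetal mass, with overlapping ranges for hmgb1. The level of hmgb2 (Xetrov90000786) was 4729 and 5488 TPM in the animal cap, 3971 to 5451 TPM in the 6 marginal libraries, 2574 and 3062 TPM in the vegetal mass and 3770 and 4977 TPM in whole embryos. That of hmgb3 (Xetrov90020498) was 3879 and 4770 TPM in the animal cap, 3111 to 4978 TPM in the marginal libraries, 1993 and 2220 TPM in the vegetal mass and 2977 and 4037 TPM in whole embryos. For both genes the 2 vegetal libraries lay below all 8 other region libraries, at means of 2818 and 2106 TPM.

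Between the animal cap and the vegetal mass, the log2 fold change was 0.99 for hmgb2 (SE 0.32, adjusted p = 0.119; blocked adjusted p = 0.000196; DESeq2 adjusted p = 0.0488) and 1.18 for hmgb3 (SE 0.41, adjusted p = 0.144; blocked adjusted p = 7.37e-05; DESeq2 adjusted p = 0.0574). Against the vegetal mass, the marginal zones gave 0.86 for hmgb2 (adjusted p = 0.128; blocked adjusted p = 0.000201) and 1.04 for hmgb3 (adjusted p = 0.147; blocked adjusted p = 8.18e-05). The third gene, hmgb1 (Xetrov90006702), spanned a narrower range, with 764 and 748 TPM in the animal cap, 709 to 807 TPM in the marginal libraries and 670 and 774 TPM in the vegetal mass. Its animal cap range lay within the vegetal range, and the log2 fold change between the poles was 0.19 (SE 0.24, adjusted p = 0.766; blocked adjusted p = 0.119). Between marginal zones and vegetal mass hmgb1 had 0.23 (adjusted p = 0.648; blocked adjusted p = 0.0422). Reads that match more than one hmgb gene are split by the counting program, and the summed hmgb level was 9372 and 11007 TPM in the animal cap, as against 5238 and 6056 TPM in the vegetal mass.

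**Figure D4:**
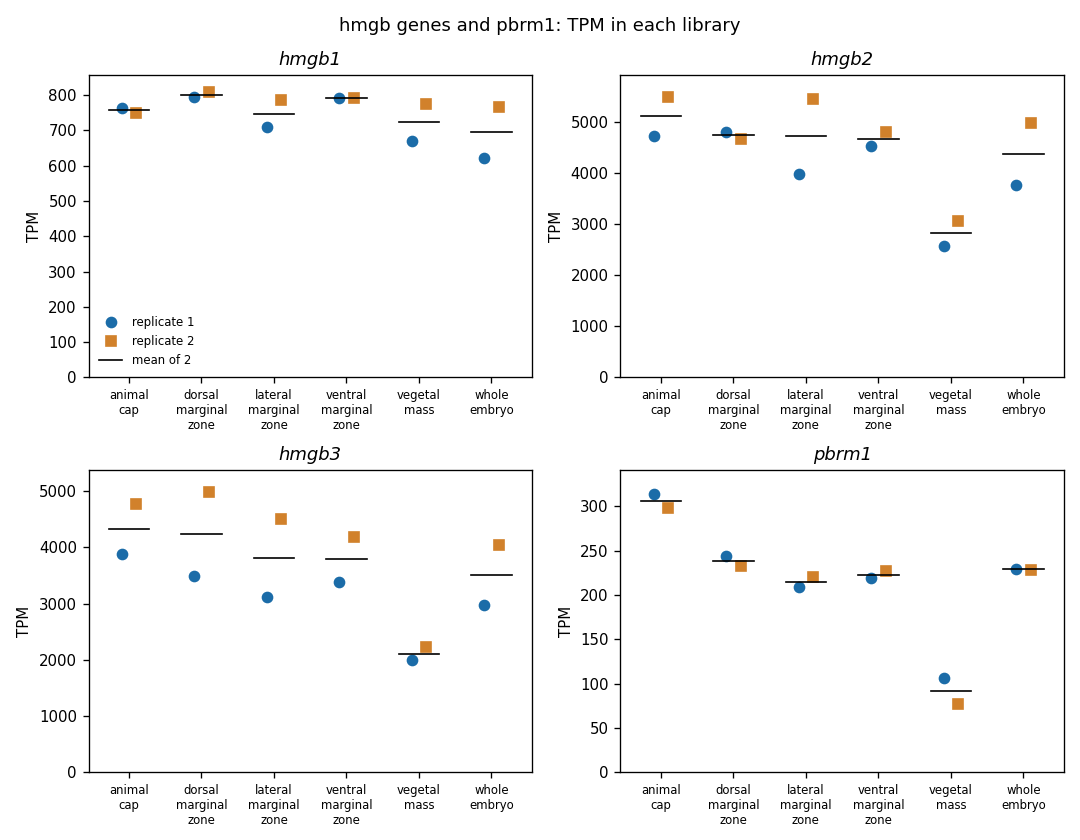
TPM of hmgb1, hmgb2, hmgb3 and pbrm1 (vertical axes, from 0, each on its own scale) in each library by region (horizontal axes); circles are replicate 1, squares replicate 2 and lines the mean of both. The vegetal mass has the lowest region mean for each gene. For hmgb1, which spans only 670 to 807 TPM over the 10 region libraries, its range overlaps those of other regions.

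Of the 22 other HMG-box genes, pbrm1 (Xetrov90028699, named pbrm1-like.2 in the v9 models), which encodes the polybromo subunit of a SWI/SNF chromatin remodelling complex, was the only one past the threshold between regions without the block. Its level was 313 and 298 TPM in animal cap libraries, 244 and 232 TPM in the dorsal, 209 and 220 TPM in the lateral and 219 and 226 TPM in the ventral marginal zone. The vegetal mass had 106 and 77.4 TPM, and whole embryos 230 and 228 TPM. The animal cap libraries lay above all 6 marginal libraries, and these above both vegetal ones.

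The log2 fold change of pbrm1 was 1.88 between animal cap and vegetal mass (SE 0.22, adjusted p = 0.0032) and 1.43 between marginal zones and vegetal mass (SE 0.19, adjusted p = 0.00742). The marginal call was lost without vegetal replicate 2 (adjusted p = 0.0814, in a range of 0.00271 to 0.0814 over the unblocked alternatives by edgeR and limma). Between the animal cap and the marginal zones it was 0.45 (SE 0.17, adjusted p = 0.591), which passed with the block at 0.46 and an adjusted p of 0.0379. A second SWI/SNF subunit gene, smarce1, had 758 and 833 TPM in the animal cap, 572 to 787 TPM in the marginal libraries and 539 and 460 TPM in the vegetal mass. Its log2 fold change between the poles was 0.82 (SE 0.28, adjusted p = 0.141; blocked adjusted p = 0.00356).

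The other genes of this group that passed between the poles did so only with the block and at smaller changes. Higher in the animal cap were ubtf, the RNA polymerase I cofactor (189 and 144 TPM in animal cap libraries, 163 and 116 TPM in the vegetal mass, blocked log2 fold change 0.40), and tox4 (73.3 and 85.7 TPM in animal cap libraries, 62.7 and 66.3 TPM in the vegetal mass, 0.43). The mismatch repair gene pms1 (22.1 and 14.8 TPM in animal cap libraries, 19.7 and 9.74 TPM in the vegetal mass, 0.51) and the replication factor gene wdhd1 (120 and 62.6 TPM in animal cap libraries, 102 and 51.5 TPM in the vegetal mass, 0.39) moved the same way. For ubtf, pms1 and wdhd1 the ranges of both regions overlapped while each clutch alone had the higher level in the animal cap. The tox4 ranges did not overlap. The wdhd1 sign turned without animal cap replicate 1, in a fit without the block.

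Lower in the animal cap with the block were hmgxb3 (8.18 and 3.39 TPM in animal cap libraries, 18.9 and 6.42 TPM in the vegetal mass, blocked log2 fold change -0.95) and hmg20b, a subunit gene of a corepressor complex (45.7 and 27.6 TPM in animal cap libraries, 66.1 and 50.8 TPM in the vegetal mass, -0.59). The repressor genes hbp1 (18.8 and 10.6 TPM in animal cap libraries, 27.0 and 17.2 TPM in the vegetal mass, -0.47) and cic (14.7 and 4.11 TPM in animal cap libraries, 20.9 and 6.60 TPM in the vegetal mass, -0.46) also lay lower. For hmgxb3, hbp1 and cic the ranges of both regions overlapped while each clutch alone had the lower level in the animal cap. Their blocked adjusted p were 0.000549 for hmgxb3, 0.0231 for hmg20b, 0.0167 for hbp1 and 0.0199 for cic, and the cic sign turned in fits without the block that left out animal cap replicate 2 or vegetal replicate 1.

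Scaling by library size alone moved the median log2 fold change of all genes by -0.16 between the animal cap and the vegetal mass and by -0.13 between the marginal zones and the vegetal mass. The directions given above for members between these regions were the same under that scaling, under DESeq2's and on the TPM scale with limma.

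The 2 clutches differed in most members. Replicate 1 against replicate 2, over all 12 libraries with the group in the model, gave 27 of the 35 members past the threshold, 12 higher and 15 lower in replicate 1, beside 65.9% of the 15848 genes tested (34% higher and 31.9% lower). Under scaling by library size, which moved the median of all genes by 0.13, the count was 26, with 14 higher and 12 lower. The share of all genes called was not determined under that scaling, so this change is no result about the members. Small differences also depended on the scale. Called lower in replicate 1, ssrp1 (log2 difference -0.17) had the higher TPM there in 5 groups, and pbrm1 (-0.18) in 4. Also called lower, hmgb1 and smarce1 had the lower TPM in replicate 1 in 4 groups and the higher in 2. Each clutch was sampled once per group, so these p-values reflect steadiness over the libraries of 2 clutches, not a spread among clutches, and the clutch cannot be told apart from depth or library preparation where these differ with it.

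Among the members lower in replicate 1 were both SoxB1 genes. The log2 difference was -0.70 for sox2 (SE 0.09, adjusted p = 4.49e-05), which was lower in replicate 1 in 6 of 6 groups, and -0.67 for sox3 (SE 0.16, adjusted p = 0.00715), lower in 5 of 6. The mitochondrial DNA-packaging gene tfam was lower by the same order, at -0.71, with 46.6 to 62.0 TPM in replicate 1 and 62.1 to 83.0 TPM in replicate 2. For sox21 it was -0.67 and for hmgb3 -0.64, with 1993 to 3879 TPM in replicate 1 and 2220 to 4978 TPM in replicate 2 for hmgb3.

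Members higher in replicate 1 were led by sox6 at a log2 difference of 2.43, which rests on 3 to 18 counts per library in replicate 1 and 0 to 2 in replicate 2. Next came kmt2c, a histone methyltransferase gene, at 1.86 (6.36 to 11.2 TPM in replicate 1, 1.29 to 2.80 TPM in replicate 2). For cic the difference was 1.48 (12.4 to 20.9 TPM in replicate 1, 3.67 to 6.60 TPM in replicate 2), for bbx 1.40 (2.70 to 3.70 TPM in replicate 1, 0.70 to 1.35 TPM in replicate 2) and for hmgxb3 1.202. For kmt2c, cic, bbx and hmgxb3, replicate 1 was higher in 6 of 6 groups, and the ranges of kmt2c, cic, bbx and hmgxb3 did not overlap between the clutches.

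The clutch difference went with transcript length. Counts per TPM, divided by their value for the median gene of each library, give a relative effective length, which was 7.58 for kmt2c, 9.77 for kmt2d, 3.53 for cic and 2.74 for hmgxb3. Of the 7 members with a length over 2 times the median, 4 passed as higher and 1 as lower in replicate 1, and 6 had a log2 difference above 0 whether or not they passed, at a median of 0.85. The member passing as lower was pbrm1, whose TPM was higher in replicate 1 in 4 groups. Of the 25 with a length up to 2 times the median, 7 passed as higher and 14 as lower, and 8 had a difference above 0, at a median of -0.38. Of the 8 shorter than the median gene, 7 passed as lower and 0 as higher. Over 32 members, Spearman's rho between length and clutch difference was 0.614 and Pearson's r with log2 length 0.658, as a description of genes that share the same libraries. With all genes divided by length into 5 equal bins, the median clutch difference was -0.19, -0.15, -0.04, 0.10 and 0.39 from the shortest to the longest. In the same order, 22.8%, 25.4%, 31.7%, 41% and 57.5% of all genes passed as higher in replicate 1. Those passing as lower made up 40.3%, 42.5%, 36.7%, 28.5% and 15.7%. A trend with length was thus present over all genes as well. The members were split at other lengths than these 5 bins, so their counts cannot be set directly against these shares. The part of length in the members' clutch differences was not tested.

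**Figure D5:**
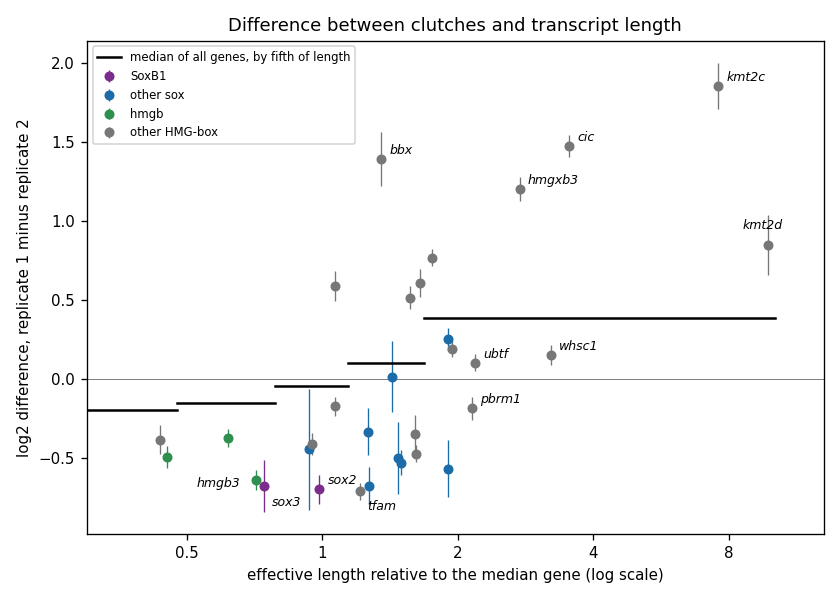
Log2 difference of replicate 1 minus replicate 2 with its SE (vertical axis) against effective length relative to the median gene (horizontal axis, log scale) for 32 members, coloured by group; black lines are the medians of all genes in 5 equal bins of length. The long genes kmt2c and cic lie at 1.86 and 1.48, and sox2, sox3 and hmgb3 lie at -0.70, -0.67 and -0.64.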

How the data were processed

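The authors mapped 50-bp single end reads of non-stranded polyA+ libraries to the v9.0 gene models with RSEM 1.2.12 and deposited, for each gene model and library, expected counts (RSEM's estimates, not normalized) and TPM. The deposited TPM are scaled to effective transcript length and library total. Names came from the study's TF catalog. Counts were rounded, filtered with filterByExpr and scaled by TMM, and edgeR 4.0.16 (robust glmQLFit) was run in R 4.3.3. Region tests used 10 libraries in 1 model, clutch tests all 12, with Benjamini-Hochberg adjusted p over every gene tested. The study's EBSeq was not used here. From the list of TFs that act with SoxB1 factors, 1 gene is not reported here.

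The methods state that the replicates are different clutches, so the replicate number pairs the samples. Deviations from group means correlated at 0.636 to 0.803 over the 10 pairs of regions. Members and lists were chosen with earlier results of these data known, so no p is adjusted over them alone. Named genes are sox2, sox3, the hmgb genes, members past the threshold in a region comparison with or without the replicate block at a mean of at least 1 TPM, up to 5 with the largest clutch difference each way, and the 5 TFs nearest to sox2 and sox3. Alternatives were the replicate block, DESeq2 1.42.0, library size scaling, no filter, other libraries in the fit, limma 3.58.1 with a pseudocount of 1 or 0.1 on log2 TPM, and each library left out. Region fits with a library left out held no replicate block. The length comparison, the test of clutch differences by region and the permutation within clutches were added after seeing the data. The edgeR, DESeq2 and limma steps were tested on simulated data. Tables and plots were made in Python 3.11.15 (pandas 2.3.3, numpy 2.4.6, matplotlib 3.10.9), and permutations with scipy 1.17.1.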

Additional observations from a re-analysis of the deposited data

Results flagged for a closer look

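In a test of whether the difference between clutches in the vegetal mass departs from that in the other 4 regions, 7 of the 35 members passed, beside 4.47% of all genes tested (edgeR's quasi-likelihood test of a clutch by vegetal mass term, Benjamini-Hochberg adjustment over all genes, added after seeing the vegetal clutch differences of sox3 and sox7, so no independent support for them). The test rests on 1 vegetal library per clutch, fitted exactly, so its spread comes only from the other regions, and each vegetal library is assumed to vary like those. The values below are the log2 difference of replicate 1 minus replicate 2 in the vegetal mass, minus the same difference in the other regions.

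The value was 1.16 for sox3 (adjusted p = 0.00244), whose replicate 1 was higher in the vegetal mass and lower in the 4 other regions. It was -2.10 for sox7 (adjusted p = 0.0294), with 107 TPM in vegetal replicate 1 and 321 TPM in vegetal replicate 2, while replicate 1 was the higher one in the animal cap, dorsal and lateral marginal zones. For other sox genes the values were 1.55 for sox1 (adjusted p = 0.0453), 0.87 for sox21 (0.044), 1.21 for sox8 (0.042) and 1.63 for sox9 (0.0272), and pbrm1 had 0.51 (adjusted p = 0.0407). With library size in place of TMM, sox3, sox7 and sox9 still passed, and pbrm1 (0.40), sox1 (1.44), sox21 (0.76) and sox8 (1.098) did not, at adjusted p of 0.0554 to 0.0803. DESeq2 called sox3, sox7, sox8, sox21 and pbrm1 and gave no adjusted p for sox1 and sox9.

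Beside these values, the summed TPM of the 4 animal cap markers in the vegetal mass was 80.6 in replicate 1 and 48.8 in replicate 2, and that of the 6 vegetal markers 6952 and 7667, with no marker at 0. Against these sums, foxi1 was lower in vegetal replicate 1 (1.17 and 1.37 TPM), and mixer and foxa1 were higher there. In the same fit, most vegetal markers had the sign of sox7, with sox17b.1 at -1.77, sox17b.2 at -1.50 and sox17a at -1.025. Likewise mixer had -0.80 and foxa1 -0.62, while gata5 had 0.27. Of the animal cap markers, tfap2a (1.187), grhl1 (1.056) and grhl3 (1.685) had the sign of sox3, and foxi1 was at -0.0056. The part of the cells or RNA so marked in the differences was not tested.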

How the results depend on the processing

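The replicate block raised the members called to 17 between animal cap and vegetal mass, to 17 between marginal zones and vegetal mass, to 1 between dorsal and ventral marginal zones and to 1 between animal cap and marginal zones. It turned the direction of no member called with or without it. Between animal cap and vegetal mass, where edgeR called 5, DESeq2 called 6, with hmgb2 added. Between marginal zones and vegetal mass, where edgeR called 4, DESeq2 called 7, limma on log2(TPM + 1) 7 and limma on log2(TPM + 0.1) 7, with hmgb2, hmgb3 and sox11 added. For DESeq2, limma and the fits with a library left out, the share of all genes called was not determined. Their counts of members therefore have no background to be read against. Leaving out single libraries gave 3 to 4 calls between animal cap and vegetal mass (5 with all), 2 to 5 between marginal zones and vegetal mass, 0 to 0 in the comparisons of dorsal with ventral and of animal cap with marginal zones, and 23 to 30 between clutches (27 with all). Against the marginal zones only, the vegetal sox2 to sox3 log2 ratio differed by -2.63 (exact permutation p = 0.0714, the smallest that 2 libraries against 6 allow), it was -2.50 with an exact permutation p of 0.08 when the label was permuted within clutches (the replicate block, added after seeing the data), and it was -2.01 without replicate 1 and -2.98 without replicate 2.

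Directions turned for cic, wdhd1 and sox3, in fits without the replicate block. Leaving out a library in such a fit leaves its region with a single clutch, while the other regions keep both. Leaving out single libraries gave cic values of -1.44 to 0.47 between the poles, with 0.16 without animal cap replicate 2 and 0.47 without vegetal replicate 1, and of -1.15 to 0.29 between marginal zones and vegetal mass, with 0.29 without vegetal replicate 1. It gave wdhd1 values of -0.016 (without animal cap replicate 1) to 0.81 between the poles and of -0.016 (without vegetal replicate 2) to 0.75 in the marginal comparison. Between dorsal and ventral marginal zones sox3 was -0.064 with library size scaling, -0.059 with limma on log2(TPM + 1) and -0.059 with limma on log2(TPM + 0.1). Leaving out single libraries gave -0.51 (without dorsal replicate 2) to 0.52, with -0.37 without ventral replicate 1. Between animal cap and marginal zones the sox3 values lay between -0.26 (without animal cap replicate 2) and 0.44, with -0.011 without lateral replicate 1. Within each clutch, the log2 TPM difference of cic was -0.51 and -0.68 between the poles and -0.70 and -0.78 in the marginal comparison. That of sox3 was 0.26 and 0.05 between animal cap and marginal zones, and -0.02 and -0.09 between dorsal and ventral marginal zones. In TPM, wdhd1 was higher in the animal cap than in the vegetal mass in both clutches. The causes of the turned directions were not tested. With 2 libraries a group, members at a few counts, such as sox5 and sox6, allow no statement on regions, and a p above the threshold does not show equal levels.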
